A study of Homo sapiens with 4 samples.

Results

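ABC transporter genes were examined in RNA sequencing data of BT-16 and CHLA-266, a pair of cell lines of the AT/RT-MYC subtype. Members were the genes of the deposited count table whose symbol consisted of ABC, a subfamily letter from A to G and a number, which gave 43 of 18449 genes. The known pumps of the drugs used, doxorubicin (doxo), etoposide (eto) or vincristine (vin), namely *ABCB1*, *ABCC1*, *ABCC2*, *ABCC3* and *ABCG2*, were described apart from the other 38 members. AT/RT are malignant brain tumors of early childhood that typically lose *SMARCB1*, a subunit of a chromatin remodeling complex, and the MYC subtype is a group defined by DNA methylation.

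Both lines were derived from patient tumors, and each was sequenced untreated and after treatment (n = 2 libraries per condition, 1 of each line). Treated cells received 1 µM doxo, 5 µM eto and 1 µM vin on 3 consecutive days, a single agent per day with a change of medium between them. Most cells died, and the library was made from the cells that grew out several weeks later. The treated libraries therefore describe surviving populations rather than cells under drug, and untreated cultures that were carried along for the same time are not part of the comparison. All 4 libraries carried the same batch label. Total counts were 75087193 and 66192504 in untreated BT-16 and CHLA-266 and 51489712 and 49849257 after treatment, and 15464 to 17815 genes had at least 1 count. The treated libraries were shallower and yet had more genes with counts. *SMARCB1* RNA was present in every library, with 827 to 1394 counts, which does not measure the protein. Of the 3 AT/RT genes looked at, *SMARCA4* and *MYC* were lower after treatment, at log2 fold changes of -0.56 and -0.59. *SMARCB1*, at -0.34, did not pass (edgeR quasi-likelihood test, Benjamini-Hochberg adjusted *p* = 0.0498, 0.0289 and 0.226). Alternative fits gave *SMARCA4* and *MYC* an adjusted *p* of up to 0.349 and 0.250, and 19.1% of all genes were lower.

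ABC proteins bind and split ATP to move substrates across membranes. Members of the B, C and G subfamilies at the plasma membrane can carry anticancer drugs or their glutathione conjugates out of the cell, and some of them guard the blood-brain barrier. A subfamily members and part of the G subfamily mostly move sterols and phospholipids, D subfamily members work mainly in peroxisomes, and the E and F subfamilies have no membrane domain and act in translation.

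The family as a whole did not move one way. After treatment, 13 of the 43 members were upregulated and 6 were downregulated, while 24 did not pass the threshold (edgeR quasi-likelihood test on the counts, Benjamini-Hochberg adjusted *p* under 0.05 over 18066 genes, treated against untreated). The share of upregulated members was 30.2% and that of downregulated members 14.0%, against 16.1% and 19.1% of all genes tested. A positive log2 fold change was fitted for 33 members, and the median over the members was 1.03, against 0.24 over all genes. This split depended on scaling: TMM (trimmed mean of M-values) gave 13 up and 6 down, upper-quartile scaling 19 and 3, and library totals alone 16 and 3, while the median log2 fold change of all genes moved from 0.24 to 0.59 and 0.46. A fit blocked by cell line, which uses the pairing of the libraries, gave 15 upregulated and 7 downregulated members (against 17.9% and 23.7% of all genes). The p-values rest on 2 libraries per condition, and an exact two-sided permutation test of 2 against 2 libraries cannot go below *p* = 0.333.

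Upregulated and downregulated members lay at different ends of the range of counts. Of the 22 members with a mean count under 200, 10 were upregulated (45.5%) and none was downregulated, with a median log2 fold change of 3.38. All 7613 genes under that limit had 22.8% upregulated, 0.486% downregulated and a median of 2.76. Of the 21 members with a mean of 200 or more, 3 were upregulated and 6 downregulated, with a median of 0.04, against 11.3%, 32.7% and -0.29 for all 10453 such genes. The limit of 200 was chosen after the values were seen. Summed over the family, the normalized level was 2283 and 2012 CPM (counts scaled to a common library size after TMM) in untreated BT-16 and CHLA-266 and 2028 and 2114 after treatment. The sum was thus higher in CHLA-266 under each scaling tried, whereas in BT-16 it was lower with TMM and with DESeq2 size factors (2207 untreated and 2099 treated) and higher with upper-quartile scaling (1995 and 2335) and library totals (2098 and 2277).

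**Figure D1:**
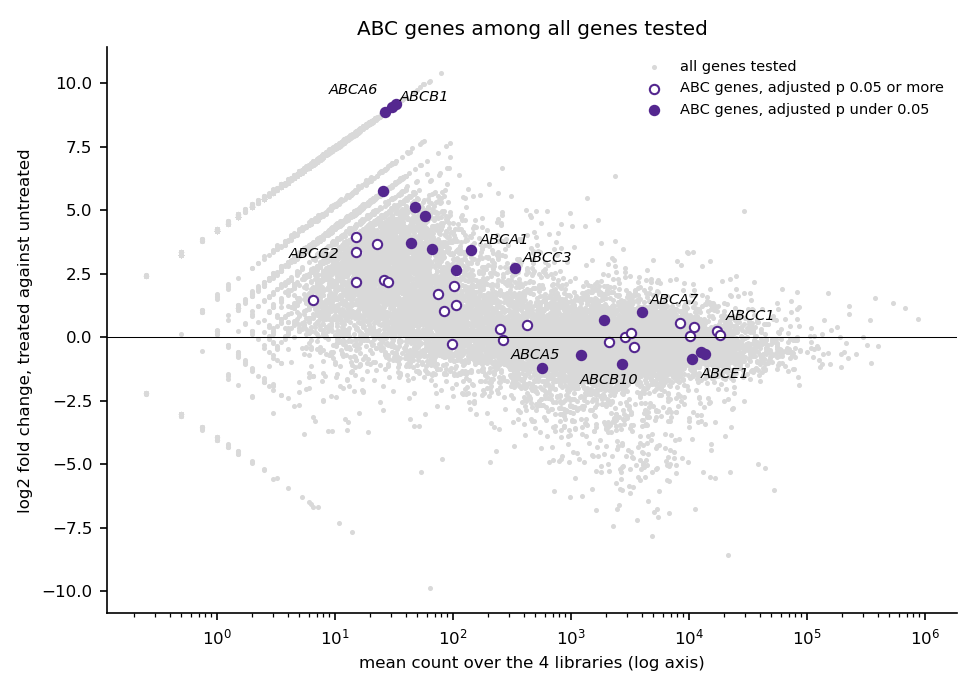
Log2 fold change of treated against untreated libraries (vertical axis) against the mean count over the 4 libraries (horizontal log axis) for all genes tested (gray points) and the 43 ABC genes (purple, filled where the adjusted p was under 0.05). Upregulated ABC genes sit mainly at low counts and downregulated ones at high counts; for genes without a count in the untreated libraries the fitted value depends on the prior count and is not a bound.

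Among the 5 drug pumps, *ABCB1* and *ABCC3* were upregulated, with higher values after treatment in each line. *ABCC1*, *ABCC2* and *ABCG2* did not pass the threshold. Of the 5, 40.0% were thus upregulated and none downregulated, against 16.1% and 19.1% of all genes tested. *ABCB1* and *ABCG2* had mean counts under 200, where 22.8% of all genes were upregulated. *ABCC1* and *ABCC2* were abundant before and after treatment, and together the 5 pumps had 479 and 384 CPM in untreated BT-16 and CHLA-266 and 499 and 583 CPM after treatment.

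*ABCB1* encodes P-glycoprotein, which exports doxo, eto and vin, and lies on the minus strand at chr7:87503017-87713323 (hg38). Neither untreated library held a count (0 and 0), whereas treated BT-16 held 69 and treated CHLA-266 held 52. The groups did not overlap, and both treated values were above the floor of 3 counts taken as detection. Set against that floor in each untreated library, the treated level of *ABCB1* was 23.8-fold higher (27.4-fold in BT-16 and 20.5-fold in CHLA-266). These folds leave out the counting error of the treated libraries. On the log2 scale the exact 95% interval of the ratio began at 4.44 in BT-16 and 4.01 in CHLA-266. With each count halved it began at 3.38 and 2.96. The gene passed the threshold (edgeR quasi-likelihood test, Benjamini-Hochberg adjusted *p* = 0.00511). The adjusted *p* was between 2.83e-05 and 0.0104 in the 12 other fits that tested the gene, those without a library included. The level stayed low in absolute terms: treated BT-16 and CHLA-266 had 1.19 and 1.00 CPM.

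Those *ABCB1* levels were read beside a class of genes that serve smell. Over 380 olfactory receptor genes, the summed level went from 7.10 CPM to 94.0 (BT-16) and from 8.37 to 68.8 (CHLA-266), and 27 of the 335 tested were upregulated (8.06%). The 95th percentile of these genes was 26.3 counts per kilobase of exon in treated BT-16 and 21.2 in treated CHLA-266. *ABCB1* had 10.7 and 8.10 counts per kilobase there, below that percentile in both. The part of this higher level of olfactory receptor counts in the *ABCB1* result was not tested.

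*ABCC3* encodes multidrug resistance protein MRP3, a pump of organic anions and glucuronide conjugates that also carries eto, and lies at chr17:50634777-50692253 on the plus strand. BT-16 went from 157 counts to 806, CHLA-266 from 50 to 323. Treated libraries were higher in both lines and the groups did not overlap, and BT-16 was above CHLA-266 in each condition. The log2 fold change was 2.70 (SE 0.58, edgeR quasi-likelihood test, Benjamini-Hochberg adjusted *p* = 0.00842), and the ratio within a line was 2.61 for BT-16 (95% interval 2.37 to 2.87) and 2.92 for CHLA-266 (2.50 to 3.40) on the log2 scale. These intervals and all others for ratios within a line are exact and cover counting error only. With 83.8 and 33.6 counts per kilobase, treated *ABCC3* exceeded the 95th percentile of olfactory receptor genes in both lines. No alternative analysis ended its call, but the log2 fold change depended on the libraries, with 2.01 without treated BT-16, 2.15 without untreated CHLA-266 and 3.63 without untreated BT-16.

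*ABCC1* encodes MRP1, an exporter of glutathione conjugates, anthracyclines and vinca alkaloids. BT-16 had 19293 counts untreated and 17057 treated, CHLA-266 15833 and 17703. Normalized, BT-16 went from 279.7 to 295.1 CPM, CHLA-266 from 257.2 to 340.7 CPM, so treated libraries lay above untreated ones without overlap, with the larger gap in CHLA-266. The log2 fold change of 0.24 (SE 0.17) did not pass (edgeR quasi-likelihood test, Benjamini-Hochberg adjusted *p* = 0.270). It passed with upper-quartile scaling at 0.59 (adjusted *p* = 0.0185) and with library totals at 0.47 (adjusted *p* = 0.0385), the settings that also shifted the median of all genes.

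*ABCC2* encodes MRP2, known from the bile canaliculus, where it exports conjugates. It had 13580 (untreated) and 10839 (treated) counts in BT-16, with 7778 and 12242 in CHLA-266. On the CPM scale BT-16 went from 197 to 187, CHLA-266 from 126 to 236, so with TMM the direction differed between the lines and the groups overlapped. The BT-16 ratio was -0.070 on the log2 scale with TMM and turned positive with DESeq2 size factors (0.029), library totals (0.22) and upper-quartile scaling (0.33). With 1 library per line and condition, differences between the ratios of the lines were not tested for any member. The log2 fold change was 0.39 (SE 0.23, edgeR quasi-likelihood test, Benjamini-Hochberg adjusted *p* = 0.213, in the blocked fit 0.0541). Without the treated BT-16 library it was 0.55 with an adjusted *p* of 0.0405.

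*ABCG2* encodes the breast cancer resistance protein, a transporter that works as a dimer and exports anthracyclines and topoisomerase inhibitors. BT-16 went from 6 counts to 52, CHLA-266 from 0 to 2. Only treated BT-16 stood out, and both CHLA-266 libraries were under the floor of 3 counts, where no difference was detectable. The ratio in BT-16 was 3.27 on the log2 scale (95% interval 2.15 to 4.88). Across both lines the log2 fold change of 3.35 (SE 2.03) did not pass (edgeR quasi-likelihood test, Benjamini-Hochberg adjusted *p* = 0.221) and turned to -0.18 without treated BT-16.

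**Figure D2:**
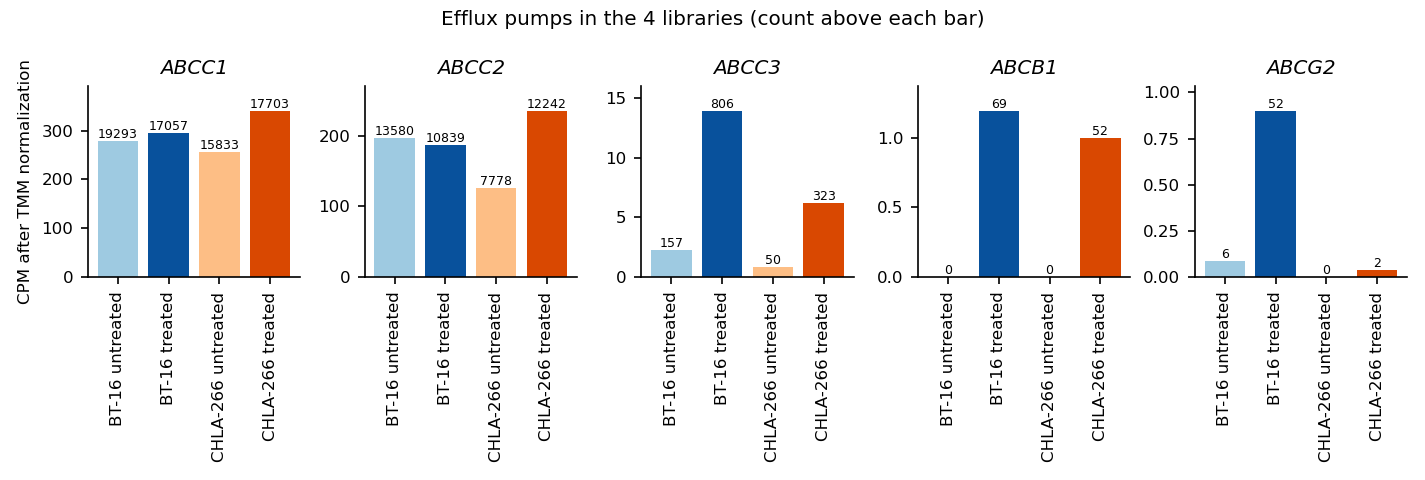
Level of each drug pump in the 4 libraries as CPM after TMM (vertical axes start at 0 and differ between panels), with the deposited count above each bar. ABCC1 and ABCC2 are at 126 CPM or more in every library, ABCC3 is higher in both treated libraries, and ABCB1 is at 0 in both untreated libraries and near 1 CPM after treatment.

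Per kilobase of exon, *ABCC1* had 29.4 to 39.0 CPM and *ABCC2* 16.1 to 30.1 CPM over the 4 libraries. *ABCC1* was above *ABCC2* in each library, although the ranges over the libraries overlapped. *ABCC3* followed with 0.0845 to 1.45 CPM per kilobase, *ABCB1* with 0 to 0.186 and *ABCG2* with 0 to 0.161. The highest member of the family was *ABCF1*, with 58.8 to 81.9 CPM per kilobase.

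**Figure D3:**
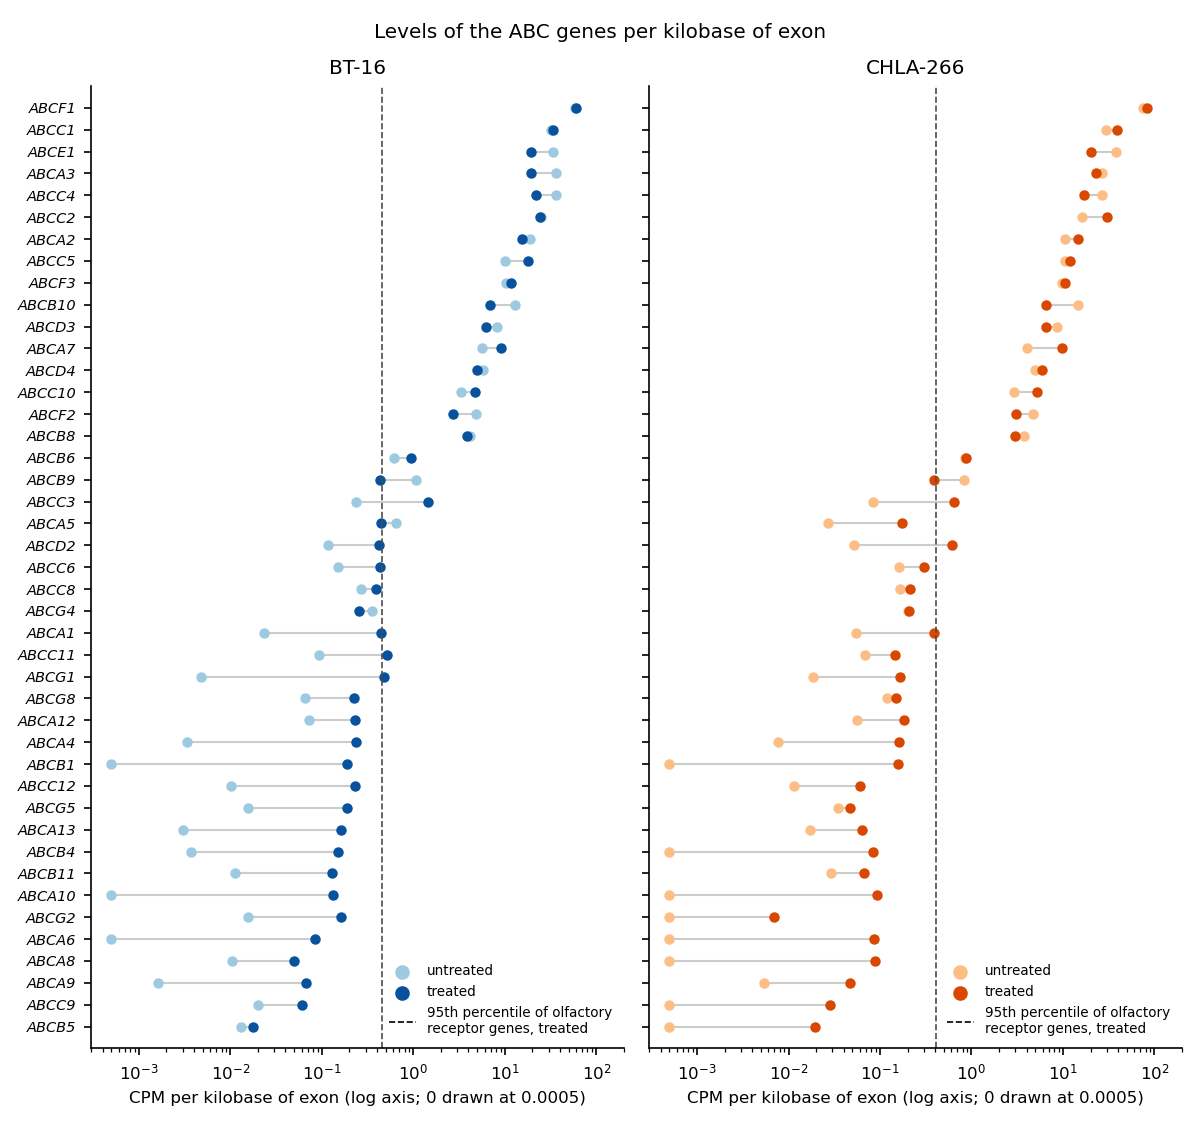
Level of each of the 43 ABC genes in CPM per kilobase of exon (log axis, 0 drawn at 0.0005) in untreated (pale) and treated (dark) BT-16 and CHLA-266, ordered by level. The dashed line is the 95th percentile of 380 olfactory receptor genes in the treated library, 0.455 for BT-16 and 0.409 for CHLA-266, and ABCB1 lies to its left in both lines.

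Windows before the annotated start of the pump genes are shown because their CpG content and the untreated level could be set side by side. RefSeq sequences (GRCh38.p14) matched 35 of the 43 members, and the 250 bases before the annotated gene start were read. Other start sites were not examined, and which start site these cells use was not determined. A window therefore need not be the promoter in use, and its CpG number and motifs describe that window only. *ABCC1* and *ABCC3* had no entry. Each sequence runs 5′ to 3′ on the gene's strand, with CpG dinucleotides in capitals. *ABCB1* (chr7:87713296-87713545, minus strand), *ABCG2* (chr4:88231627-88231876, minus strand) and *ABCC2* (chr10:99782390-99782639, plus strand) had 1, 2 and 1 CpG. *ABCC4* (chr13:95301452-95301701, minus strand), an abundant MRP, had 42 and is given as the contrast. *ABCA5* had 42 as well, and no matched member had more.
ABCB1: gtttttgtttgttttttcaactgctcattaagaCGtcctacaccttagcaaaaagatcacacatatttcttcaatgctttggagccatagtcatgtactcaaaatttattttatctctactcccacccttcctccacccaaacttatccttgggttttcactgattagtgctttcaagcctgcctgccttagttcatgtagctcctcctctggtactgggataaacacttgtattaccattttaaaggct
ABCG2: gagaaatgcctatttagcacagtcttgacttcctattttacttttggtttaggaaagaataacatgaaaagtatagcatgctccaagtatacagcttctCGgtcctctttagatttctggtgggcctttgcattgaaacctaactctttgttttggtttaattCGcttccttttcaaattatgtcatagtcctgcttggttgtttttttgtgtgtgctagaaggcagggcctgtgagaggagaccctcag
ABCC2: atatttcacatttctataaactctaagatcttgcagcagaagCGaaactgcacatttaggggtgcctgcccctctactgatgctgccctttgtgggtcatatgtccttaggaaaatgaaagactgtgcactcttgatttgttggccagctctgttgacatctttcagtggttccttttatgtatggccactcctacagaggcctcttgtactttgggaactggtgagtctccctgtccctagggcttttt
ABCC4: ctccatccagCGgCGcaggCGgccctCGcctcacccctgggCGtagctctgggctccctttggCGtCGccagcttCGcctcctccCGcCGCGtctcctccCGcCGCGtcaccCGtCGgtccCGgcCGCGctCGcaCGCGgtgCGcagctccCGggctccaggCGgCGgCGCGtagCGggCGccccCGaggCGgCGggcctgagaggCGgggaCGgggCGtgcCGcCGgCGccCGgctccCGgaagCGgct

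The 9 matched members with at most 20 counts in both untreated libraries had 1 to 8 CpG in this window, with a median of 2. The 16 matched members with 500 or more counts in both had 1 to 42, with a median of 24.5, and the median over all 27305 RefSeq promoters was 11. *ABCC2* was the exception among the abundant members, with 1 CpG. Members between these limits varied. *ABCC9*, at 24 and 0 counts in untreated BT-16 and CHLA-266, had 15 CpG and *ABCA1*, at 18 and 38, had 16. *ABCA12*, at 48 and 33, had 1 and *ABCC11*, at 54 and 36, had 0. These limits were chosen with the values known, and the comparison is a description. Motifs were searched on both strands of the same windows. GGGCGG, the GC box, occurred in 51.4% of the members and 42.3% of all promoters, CCAAT in 17.1% and 33.0%, the E-box CACGTG in 11.4% and 6.49%, TATAAA in 14.3% and 11.1%, and TGACNNNGC, the core of the antioxidant response element, in 17.1% and 11.0%. Of these motifs, the *ABCC2* window held only TATAAA and the *ABCC4* window only TGACNNNGC, while the *ABCB1* and *ABCG2* windows held none.

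**Figure D4:**
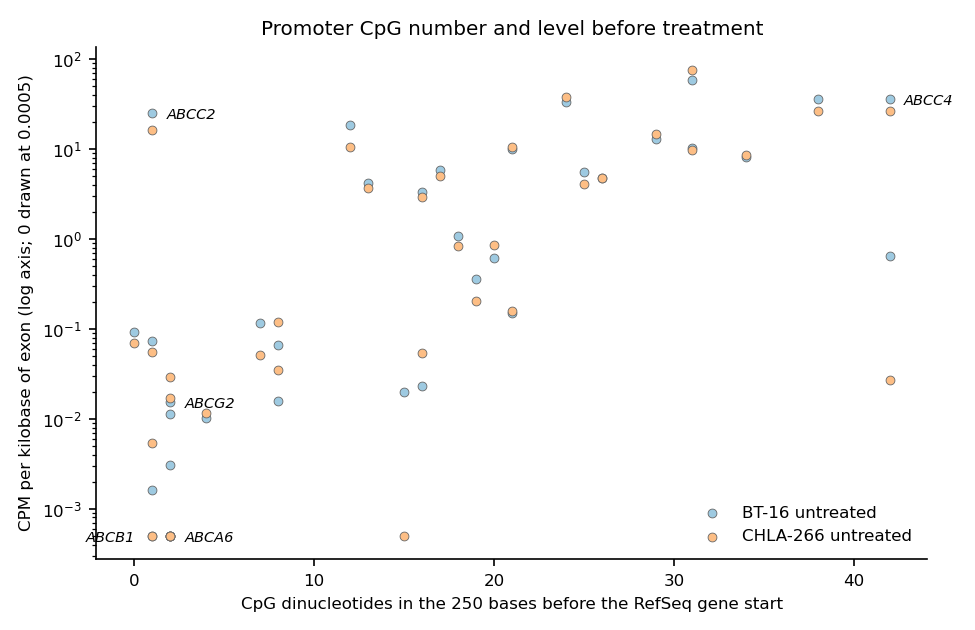
Number of CpG dinucleotides in the 250 bases before the RefSeq gene start (horizontal axis) against the untreated level in CPM per kilobase (log axis, 0 drawn at 0.0005) for the 35 matched ABC genes in BT-16 and CHLA-266. The 9 members with at most 20 untreated counts in both lines lie at 1 to 8 CpG, and ABCC2 combines 1 CpG with 16.1 to 25.1 CPM per kilobase.

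Of the 9 other plasma membrane transporters, *ABCB4*, *ABCC10* and *ABCC12* were upregulated, *ABCC4* was downregulated and 5 did not pass (33.3% up and 11.1% down, against 16.1% and 19.1% of all genes). *ABCC4* encodes MRP4, which exports cyclic nucleotides and prostaglandins. It was at 21601 counts before and 11049 after treatment in BT-16, and at 14160 and 7693 in CHLA-266, lower after treatment in both lines. The log2 fold change was -0.68 (SE 0.21, edgeR quasi-likelihood test, Benjamini-Hochberg adjusted *p* = 0.0340). It lost the call in 4 of 9 alternative fits, at the most with -0.32 under upper-quartile scaling (adjusted *p* = 0.229), and also without untreated BT-16 (-0.44, adjusted *p* = 0.202) or treated CHLA-266 (-0.49, adjusted *p* = 0.0893).

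*ABCC10*, which encodes the taxane and vinca alkaloid pump MRP7, had 1859 counts untreated and 2218 treated in BT-16, against 1446 and 2170 in CHLA-266. Its log2 fold change was 0.67 (SE 0.18, adjusted *p* = 0.0220 by the same edgeR test). The adjusted *p* rose to 0.0510 without untreated BT-16 and 0.126 without untreated CHLA-266. *ABCC12*, which encodes MRP9, had 7 (untreated) and 132 (treated) counts in BT-16, with 7 and 31 in CHLA-266. It had a log2 fold change of 3.72 (SE 1.00, adjusted *p* = 0.0209). Treated BT-16 was the highest library, and without it the value was 2.45 (adjusted *p* = 0.356). *ABCC12* also failed without untreated BT-16 (adjusted *p* = 0.0547) and without untreated CHLA-266 (adjusted *p* = 0.0520).

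*ABCB4* encodes the phosphatidylcholine floppase of bile and lies 22.6 kb from *ABCB1* on the same strand, as the nearest protein-coding gene on that side. It was at 2 counts before and 67 after treatment in BT-16, and at 0 and 34 in CHLA-266. Both treated libraries were above both untreated ones. The log2 ratio in BT-16 was 5.01 (95% interval 3.41 to 8.40). Treated CHLA-266 was 13.4-fold above the floor of 3 counts, and its 95% interval began at 3.37 on the log2 scale. *ABCB4* passed over both lines (edgeR quasi-likelihood test, Benjamini-Hochberg adjusted *p* = 0.0175). Without treated BT-16 the adjusted *p* was 0.0742.

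The protein-coding genes around *ABCB1* moved in both directions. Of the 10 nearest, 5 on each side, 3 were upregulated, namely *ABCB4*, *CROT* and *ELAPOR2*, and 4 were downregulated, namely *SLC25A40*, *DBF4*, *ADAM22* and *SRI*, where 16.1% and 19.1% of all genes were. *DBF4*, a regulator of DNA replication, had a log2 fold change of -2.23 and *SLC25A40*, a mitochondrial carrier, of -2.05. *RUNDC3B* lies antisense to *ABCB1* and overlaps it by 85776 bp, with 53 counts untreated and 25 treated in BT-16, against 70 and 62 in CHLA-266. The overlap is of whole genes, and the part of it in exons was not examined. *RUNDC3B* had counts in the untreated libraries, in which *ABCB1* had 0. Whether counting used the strand is not given in the sources used here, and a part of *RUNDC3B* reads in the *ABCB1* counts was not tested. Around *ABCC3*, 3 of 10 neighbors were upregulated and none was downregulated, beside the same shares of all genes. Among these, *CACNA1G*, a T-type calcium channel gene 7.30 kb away, had a log2 fold change of 2.23.

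*ABCC5* and *ABCC11* did not pass but did so in most alternative fits, 7 of 9 for *ABCC5* and 6 of 9 for *ABCC11*, among them the fit blocked by cell line. Both values rested on treated BT-16, without which *ABCC5* stood at 0.22 (adjusted *p* = 0.476) and *ABCC11* at 0.85 (adjusted *p* = 0.568), and *ABCC11* also failed in DESeq2 with the block (adjusted *p* = 0.0573). *ABCC5*, which encodes the cyclic nucleotide exporter MRP5, had 7779 counts untreated and 11618 treated in BT-16, against 7360 and 7047 in CHLA-266 (log2 fold change 0.53, SE 0.21, edgeR quasi-likelihood test, Benjamini-Hochberg adjusted *p* = 0.0718, with the block 0.0101). *ABCC11*, which encodes MRP8, known from earwax glands, had 54 (untreated) and 252 (treated) counts in BT-16, with 36 and 64 in CHLA-266 (log2 fold change 2.03, adjusted *p* = 0.0543, with the block 0.0385). In both genes the treated to untreated ratio was larger in BT-16, at 0.83 against 0.18 for *ABCC5* and 2.47 against 1.07 for *ABCC11* on the log2 scale. The bile salt pump *ABCB11*, *ABCB5* and *ABCC6* had log2 fold changes of 2.25, 1.46 and 1.25 and did not pass, and neither did the potassium channel regulators *ABCC8* and *ABCC9* at 0.48 and 2.15.

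Sterol and lipid transporters made up 16 members, of which 7 were upregulated (43.8%), 1 was downregulated (6.25%) and 8 did not pass, with a median log2 fold change of 2.80. Of all genes 16.1% were upregulated and 19.1% downregulated, and 12 of the 16 had a mean count under 200, where 22.8% of all genes were upregulated. *ABCA1*, which loads cholesterol onto apolipoprotein A-I, was at 18 counts before and 287 after treatment in BT-16, and at 38 and 227 in CHLA-266. *ABCG1*, which passes sterol to high-density lipoprotein, had 2 counts untreated and 171 treated in BT-16, against 7 and 52 in CHLA-266. The log2 fold change was 3.41 (SE 0.59, edgeR quasi-likelihood test, Benjamini-Hochberg adjusted *p* = 0.00319) for *ABCA1* and 4.77 (SE 1.01, adjusted *p* = 0.00819) for *ABCG1*. Without treated BT-16 *ABCG1* stood at 3.78 and did not pass (adjusted *p* = 0.0654).

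*ABCA7*, a phospholipid transporter linked to Alzheimer's disease, was the most abundant of the upregulated members. It had 3697 (untreated) and 5082 (treated) counts in BT-16, with 2389 and 4829 in CHLA-266, a log2 fold change of 0.97 (SE 0.19, edgeR quasi-likelihood test, Benjamini-Hochberg adjusted *p* = 0.00582). *ABCA4*, the retinoid transporter of photoreceptors, rose from 2 counts to 116 (BT-16) and from 4 to 71 (CHLA-266) (5.12, SE 0.94, adjusted *p* = 0.00434). *ABCA13*, a very large member, was at 4 counts before and 177 after treatment in BT-16, and at 20 and 63 in CHLA-266 (3.48, SE 0.96, adjusted *p* = 0.0234). The adjusted *p* of *ABCA13* was 0.0522 without untreated BT-16 and 0.115 without treated BT-16.

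*ABCA8*, *ABCA9*, *ABCA6*, *ABCA10* and *ABCA5* lie next to each other on the minus strand of chromosome 17, between positions 68867289 and 69327244. *ABCA6* was at 0 before treatment in either line and at 68 (BT-16) and 63 (CHLA-266) after it (edgeR quasi-likelihood test, Benjamini-Hochberg adjusted *p* = 0.00417). That was 25.9-fold above the floor of 3 counts, and the exact 95% intervals began at 4.42 (BT-16) and 4.30 (CHLA-266) on the log2 scale. *ABCA10* had 0 in both and then 65 and 41, 20.7-fold above the floor (adjusted *p* = 0.00717 by the same edgeR test), with intervals from 4.35 and 3.65. *ABCA8* went from 8 counts to 32 (BT-16) and from 0 to 52 (CHLA-266), and *ABCA9* from 1 to 35 and from 3 to 22. Neither of these passed (adjusted *p* = 0.0905 and 0.0777), and the log2 ratio of *ABCA9* was 4.82 (95% interval 2.81 to 10.7) in BT-16 and 2.93 (1.38 to 5.50) in CHLA-266.

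*ABCA5*, at the end of this cluster, had ratios of opposite sign in the lines. It had 586 counts untreated and 333 treated in BT-16, against 22 and 120 in CHLA-266. The treated to untreated ratio was -0.56 for BT-16 (95% interval -0.76 to -0.36) and 2.67 for CHLA-266 (2.03 to 3.42) on the log2 scale, and the fit over both gave -0.13 (SE 1.04, adjusted *p* = 0.928 by the same edgeR test).

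*ABCA3*, the lipid transporter of lamellar bodies in the lung, was the sterol and lipid transporter that fell. BT-16 went from 19556 counts to 8673, CHLA-266 from 12806 to 9279, a log2 fold change of -0.58 (SE 0.20, edgeR quasi-likelihood test, Benjamini-Hochberg adjusted *p* = 0.0484). This call was lost in 6 of 9 alternative fits, with an adjusted *p* of up to 0.328, as well as without untreated BT-16 (0.294) or treated BT-16 (0.108). The fall was larger in BT-16, at -0.92 on the log2 scale, than the -0.22 of CHLA-266. *ABCA12* (1.68), *ABCG5* (2.19), *ABCG8* (1.03), *ABCA2* (0.04) and *ABCG4* (-0.27) did not pass.

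**Figure D5:**
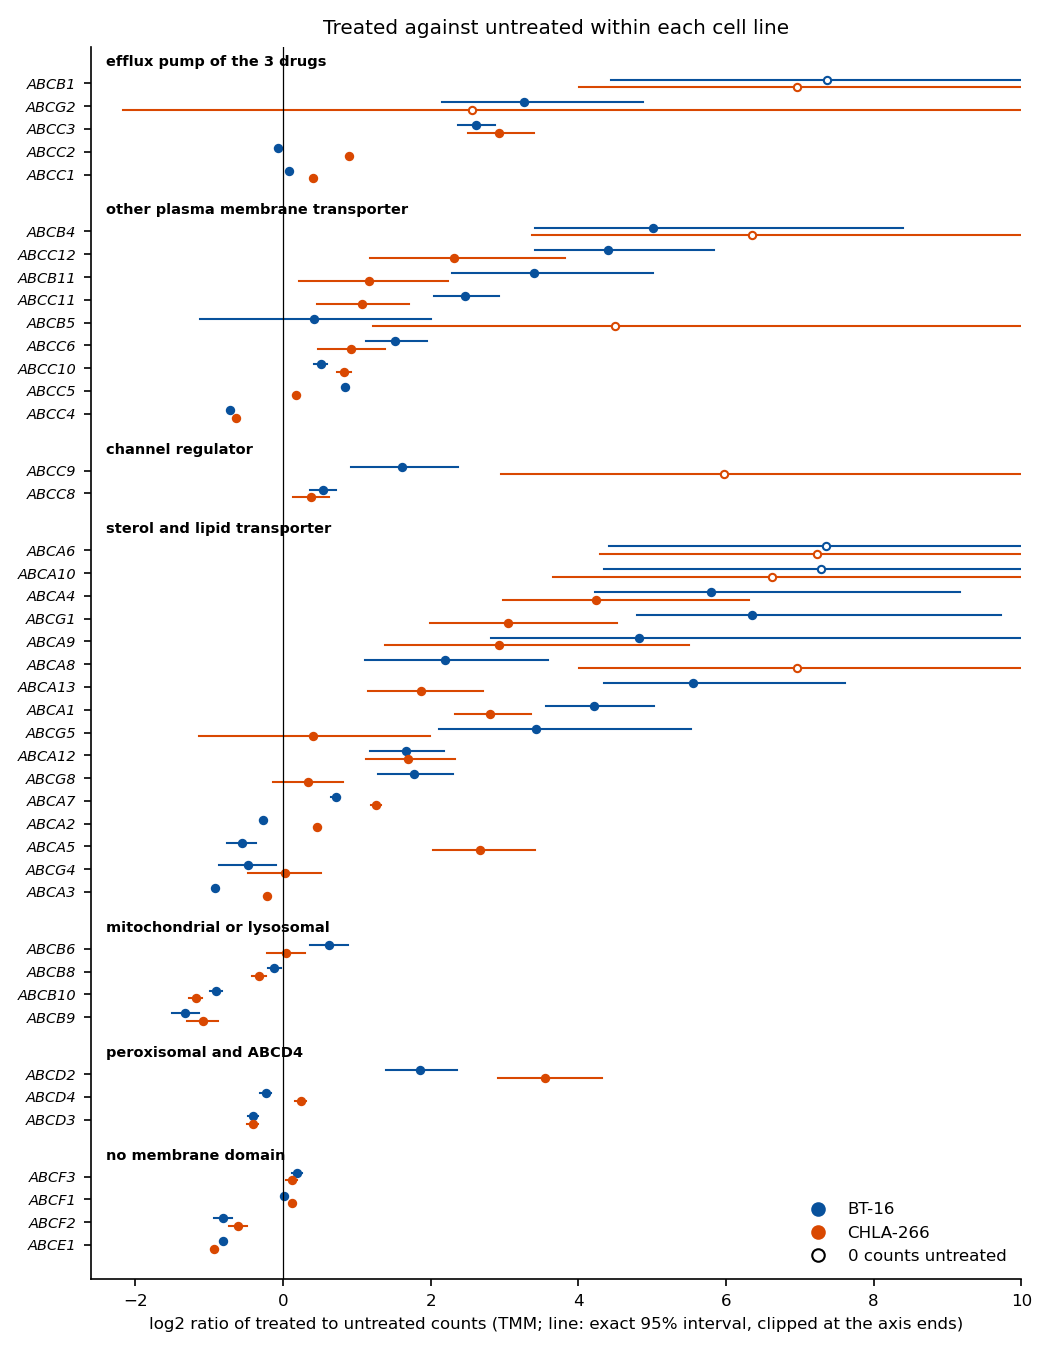
Log2 ratio of treated to untreated counts after TMM within BT-16 (blue) and CHLA-266 (orange) for the 43 ABC genes, grouped by role, with exact 95% intervals of counting error as lines (clipped at the axis ends) and open circles where the untreated count was 0. Both lines are below 0 for ABCE1, ABCB10 and ABCB9, and ABCA5 is below 0 in BT-16 and above 0 in CHLA-266.

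Members grouped as mitochondrial or lysosomal, as peroxisomal with *ABCD4*, or as without a membrane domain fell or did not pass, apart from *ABCD2*. Downregulated were 2 of the 4 mitochondrial or lysosomal members, 2 of the 4 without a membrane domain and 0 of the 3 peroxisomal members with *ABCD4*. Of all genes 19.1% were downregulated, and 32.7% at mean counts of 200 or more, where all these members but *ABCD2* lay. *ABCB10*, a mitochondrial inner membrane protein needed for heme synthesis, had 3823 (untreated) and 1712 (treated) counts in BT-16, with 3859 and 1434 in CHLA-266. *ABCE1*, the ribosome recycling factor, was at 14445 counts before and 6918 after treatment in BT-16, and at 14749 and 6537 in CHLA-266. Normalized, *ABCB10* had 55.4 and 62.7 CPM in untreated BT-16 and CHLA-266 and 29.6 and 27.6 CPM after treatment, and *ABCE1* 209.4 and 239.6 CPM and then 119.7 and 125.8 CPM. The treated values of each gene were below both untreated ones. The log2 fold change was -1.05 (SE 0.17, edgeR quasi-likelihood test, Benjamini-Hochberg adjusted *p* = 0.00234) for *ABCB10* and -0.87 (SE 0.16, adjusted *p* = 0.00452) for *ABCE1*.

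*ABCB9*, a lysosomal peptide transporter, had 979 counts untreated and 328 treated in BT-16, against 682 and 271 in CHLA-266 (-1.21, SE 0.29, edgeR quasi-likelihood test, Benjamini-Hochberg adjusted *p* = 0.0132, and 0.0701 without untreated BT-16). *ABCF2*, an ATPase of the translation-related F subfamily, had 1709 (untreated) and 815 (treated) counts in BT-16, with 1504 and 832 in CHLA-266 (-0.71, SE 0.21, adjusted *p* = 0.0281). *ABCF2* lost its call in 3 of 9 alternative fits (adjusted *p* up to 0.186), without either untreated library (adjusted *p* = 0.104 without BT-16 and 0.0972 without CHLA-266) and without treated BT-16 (0.0765). *ABCF1* and *ABCF3*, at 0.08 and 0.15, and the mitochondrial *ABCB8* and porphyrin-linked *ABCB6*, at -0.21 and 0.31, did not pass.

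Among the peroxisomal members, *ABCD2*, a carrier of very long-chain fatty acyl-CoA, rose from 50 counts to 152 (BT-16) and from 20 to 202 (CHLA-266) (log2 fold change 2.63, SE 0.63, edgeR quasi-likelihood test, Benjamini-Hochberg adjusted *p* = 0.0132). *ABCD3*, a related carrier of branched-chain fatty acyl-CoA, was at 4326 counts before and 2737 after treatment in BT-16, and at 4060 and 2575 in CHLA-266. It stood at -0.41 (SE 0.16, adjusted *p* = 0.0691) and passed in 1 of 9 alternative fits, with the block (adjusted *p* = 0.0346), while the other 8 gave an adjusted *p* of up to 0.757. *ABCD4*, which serves lysosomal cobalamin release, was at 0.0040 on the log2 scale over both lines.

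Several downregulated members overlap other genes on the map. *OTUD4* covers 18687 bp of *ABCE1* on the opposite strand, *OGFOD2* covers 5464 bp of *ABCB9*, and the readthrough gene *ABCF2-H2BK1* covers 15683 bp of *ABCF2* on the same strand, so counts of these members could include reads of their partners.

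Leaving out each library in turn, 8 of the 13 upregulated members kept their call in all 4 fits, namely *ABCA1*, *ABCA4*, *ABCA6*, *ABCA7*, *ABCA10*, *ABCB1*, *ABCC3* and *ABCD2*. Of the 6 downregulated members, *ABCB10* and *ABCE1* did so. The size of the change depended on the untreated libraries in several upregulated members. Without untreated BT-16 the log2 fold change was 2.91 for *ABCA1*, 4.65 for *ABCA4*, 3.32 for *ABCD2*, 2.71 for *ABCA13*, 4.10 for *ABCG1* and 8.70 for *ABCB4*. Without untreated CHLA-266 it was 4.15, 5.76, 2.16, 5.16, 5.995 and 4.87 in the same order, and without treated CHLA-266 it was 5.36 for *ABCG1* and 4.39 for *ABCC12*. Only 3 of the 13 upregulated members, *ABCA7*, *ABCC3* and *ABCC10*, exceeded the 95th percentile of olfactory receptor genes in both treated libraries. Markers of other cell types also had low counts that moved. The share of all genes upregulated was 16.1%, and 22.8% at mean counts under 200, where 9 of the 10 endothelial, all 11 macrophage, 5 of the 6 hepatocyte and 2 of the 6 epithelial markers lay. Of the endothelial markers 4 of 10 were upregulated and none was downregulated (3 and 1 with the block). Their summed levels were 8.59 to 10.1 CPM untreated and 12.3 to 19.5 CPM treated. *EGFL7* held most of both untreated sums and went down, from 7.52 to 4.22 CPM (BT-16) and from 6.99 to 2.71 (CHLA-266). This endothelial marker did not pass the main fit (edgeR quasi-likelihood test, Benjamini-Hochberg adjusted *p* = 0.0520, with the block 0.0122). Of the macrophage markers 3 of 11 were upregulated (2 with the block), with 3.69 to 6.58 CPM untreated and 7.27 to 11.2 CPM treated. Among hepatocyte markers 3 of 6 were upregulated (3.69 to 4.52 and 14.5 to 15.1 CPM), and among epithelial markers 2 of 6 (4 with the block, 180 to 384 and 382 to 943 CPM). The hepatocyte markers called were *TF*, *SERPINA1* and *CYP2E1*. *ALB*, at 0 in both untreated libraries and at 6 and 20 counts after treatment, did not pass (edgeR quasi-likelihood test, Benjamini-Hochberg adjusted *p* = 0.0978). The part of the cell type markers in the ABC results was not tested. In bulk RNA a change in the number of cells of a type and a change in RNA per cell cannot be told apart.

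Across the lines, *ABCA5* and *ABCC3* were higher in BT-16 with treatment as a covariate, and no member was higher in CHLA-266 (1.46% and 0.836% of all genes in these directions). At an unadjusted *p* under 0.05 the counts were 5 and 1, and DESeq2 called 1 and 0, with no adjusted *p* for 11 members. The CHLA-266 minus BT-16 difference was -2.83 (SE 0.56, edgeR quasi-likelihood test, Benjamini-Hochberg adjusted *p* = 0.00274) for *ABCA5* and -1.31 (SE 0.34, adjusted *p* = 0.0313) for *ABCC3*. Both calls were lost with at least 10 counts required in every library (adjusted *p* = 0.118 for each) and with edgeR's expression filter (0.0903 and 0.100), and *ABCC3* was lost with DESeq2 (0.119).

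Partner genes of drug export were counted in both directions. Of the 16 genes of glutathione synthesis and conjugation, which feeds the MRP pumps, 3 were upregulated (18.8%, near the 16.1% of all genes) and 1 was downregulated (6.25%, against 19.1%). *GCLC*, the catalytic subunit of the enzyme that limits glutathione synthesis, had 2185 counts untreated and 13850 treated in BT-16, against 2022 and 13962 in CHLA-266. Its log2 fold change was 2.98, that of the modifier subunit *GCLM* was 1.25, and *GSTM3* went from 0 in both untreated libraries to 40 and 14 counts, a call lost with the block (edgeR quasi-likelihood test, Benjamini-Hochberg adjusted *p* = 0.0341 and 0.0603 with the block). *GSTM1* had -0.83 (adjusted *p* = 0.0259, up to 0.120 in alternative fits). The other 12 did not pass, among them *GSR* at 0.08 and *GSTP1* at -0.17.

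Among transcriptional regulators linked to ABC genes, *FOXO1* (2.79), *FOXO3* (1.20) and *ESR1* (2.75) were upregulated, and *KEAP1* (-1.40) and *YBX1* (-0.92) were downregulated. These directions held 16.1% and 19.1% of all genes. *KEAP1*, which marks the antioxidant regulator NRF2 for degradation, had 6165 (untreated) and 1832 (treated) counts in BT-16, with 4556 and 1576 in CHLA-266. *NFE2L2*, the gene of NRF2 itself, had 0.38 and did not pass (edgeR quasi-likelihood test, Benjamini-Hochberg adjusted *p* = 0.123, with the block 0.0397). The xenobiotic receptors *NR1I2* and *NR1I3* had positive values of 2.30 and 1.90 that did not pass. Of 21 further genes of drug handling, *MVP* (1.93), *LRP1* (1.63), *CBR1* (1.11) and *SLCO1A2* (5.26) rose (19.0%, against 16.1% of all genes). *SLCO4A1* (-1.10) fell (4.76%, against 19.1%). The other 16 did not pass, among them *NQO1* at 0.33. *SLCO1A2* lost its call with the block (edgeR quasi-likelihood test, Benjamini-Hochberg adjusted *p* = 0.0464 and 0.0519 with the block). *CBR1* encodes a carbonyl reductase that acts on doxo and *MVP* the major vault protein. Of 5 membrane partners, the cytoskeletal linker *EZR* rose by 1.00 and the scaffold *NHERF1* had -2.00, and of 3 ABC proteins with other symbols the peptide transporter *TAP1* (1.60) and the chloride channel *CFTR* (3.18) rose.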

How the data were processed

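RNA of 4 libraries was sequenced from 10 ng of total RNA with a stranded kit. Per the labels and the methods of the study, reads were demultiplexed with bcl2fastq 2.20, trimmed, aligned to hg38 with STAR and counted per gene, and genes of the sex chromosomes and repeatedly counted genes were removed by the authors, so members on these chromosomes were not analysed here. The deposited estimated counts were whole numbers except for 5 values in 2 genes, which were rounded. The authors also deposited variance-stabilized log2 values, which served as an alternative only. Whether both reads of a pair, or the strand, entered the counts is not given in the sources used here. Only 20.5% to 34.2% of low counts were odd numbers, so exact intervals may be too narrow.

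Counts of 18066 genes with a nonzero total were normalized by TMM and tested with edgeR 4.0.16 in R 4.3.3 (quasi-likelihood test, treated against untreated, Benjamini-Hochberg adjustment over all genes tested). Libraries of the same cell line are pairs by design, and their deviations correlated with 0.259 over 12620 genes. The common dispersion was 0.140, and 0.0712 once the cell line was a block. Differences between lines were tested with treatment as a covariate. Ratios within a line carry exact (Clopper-Pearson) 95% intervals. Folds for genes at 0 before treatment used 3 counts per untreated library and leave out the counting error of the treated libraries. DESeq2 1.42.0, limma 3.58.1, other scalings and filters, and leaving out each library were alternatives. Levels per kilobase used exon lengths and positions from GENCODE for GRCh38, found for 18344 of 18449 symbols. Scripts were tested on simulated counts with known changed genes. There the main edgeR fit, without the block, recovered none of the changed genes at an adjusted *p* under 0.05. The blocked fit and DESeq2 recovered most of them. The simulation changed a far smaller share of genes than the 16.1% and 19.1% called here, so its recovery cannot be carried over to these data. With 2 libraries per condition, a gene that did not pass the main fit is not shown to be unchanged.

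Every member could be named. Values in each library were given for the pumps, for members past the threshold and for members with opposite ratios in the lines. The members, gene lists and roles were chosen with earlier results of these data known. The result of a gene on the list of regulators is not reported here.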

Additional observations from a re-analysis of the deposited data

Results flagged for a closer look

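In 4 members, the ratio of treated to untreated counts had opposite signs in BT-16 and CHLA-266, with exact intervals off 0 on both sides. With 1 library per line and condition, the difference was not tested. *ABCA5* had a log2 ratio of -0.56 (BT-16) and 2.67 (CHLA-266), and kept these signs under every scaling tried. It had 586 counts in untreated BT-16 and 22 in untreated CHLA-266, and after treatment 333 and 120, so the lines lay closer together after treatment.

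The other members had smaller ratios, and their sign in BT-16 depended on scaling. *ABCC2* had -0.070 and 0.90, *ABCA2*, a lipid transporter of endosomes and lysosomes in the brain, -0.27 and 0.46, and *ABCD4* -0.23 and 0.24. *ABCA2* was at 14755 counts before and 10241 after treatment in BT-16, and at 7507 and 8737 in CHLA-266, and *ABCD4* 3561 and 2540 and then 2726 and 2715. *ABCG4* also had opposite signs, -0.48 and 0.03, with an interval of -0.47 to 0.51 in CHLA-266.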

How the results depend on the processing

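The counts of ABC members called and the fold changes of the pumps and called members were recomputed with the cell line as a replicate block, DESeq2, other scalings, stricter filters, limma on the log2 values, and without each library in turn, and ratios within a line with other scalings and halved counts. Neighbors, other gene lists and olfactory receptors were not refitted without a library. The number of upregulated members was 13 and that of downregulated members 6. The second became 3 with upper-quartile scaling, library totals or at least 10 counts in every library, and leaving out a library gave 2 to 5 (10 to 15 upregulated). The lowest, 2, came without untreated BT-16. With the block the numbers were 15 and 7, where *ABCC5*, *ABCC11* and *ABCD3* were added. The block ended no call of an ABC member, but those of *GSTM3*, *SLCO1A2*, *TIE1* and *C1QA* among the other lists (adjusted *p* = 0.0603, 0.0519, 0.0612 and 0.109). The 2 members higher in BT-16 became 0 with the cell line alone in the model, with at least 10 counts in every library or with edgeR's expression filter, 1 with DESeq2 and 4 with library totals. Leaving out a library could not be fitted for this comparison, since no residual degrees of freedom remain. Where a group was left with 1 library, that library was taken to vary like the other group.

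*ABCB1* and *ABCC3* kept their direction and call in every fit that tested them. *ABCC1* passed with upper-quartile scaling (0.59) and library totals (0.47). *ABCC2* passed with DESeq2 and the block (0.48) and upper-quartile scaling (0.74), and leaving out a library gave 0.10 to 0.74. *ABCG2* ranged from -0.18 to 7.75 without a library and reversed at -0.18 without treated BT-16, where the treated group is CHLA-266 with 2 counts. Within BT-16, the sign of *ABCC2* reversed to 0.029 with DESeq2 size factors, 0.33 with upper-quartile scaling and 0.22 with library totals, that of *ABCA2* to 0.13 and 0.017 and that of *ABCD4* to 0.17 and 0.057 with the last pair of scalings. These scalings differ in the effective library sizes alone.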
